A study of Mus musculus with 8 samples.

Results

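The genes described here are 10 lipogenic enzymes and regulators, chosen by name: the transcription factors Srebf1 and Mlxipl, the enzymes of fatty acid synthesis Acaca, Acacb, Fasn, Scd1 and Scd2, and the enzymes of triglyceride assembly Lpin1, Dgat1 and Dgat2. They are 10 of the 20145 named genes on the array, and were measured by every non-control probe whose annotated transcript belongs to one of them. That gave 14 probes, of which 13 were well above background on at least 4 of 8 arrays and could be tested. The tissue was a fast muscle of the hindlimb, the extensor digitorum longus (EDL), taken from male mice of the C57BL/6 strain. In 4 PCKO mice, p300 (Ep300) and CBP (Crebbp), a pair of related acetyltransferases that act as transcriptional coactivators, had been deleted through an inducible knockout specific to skeletal muscle. The control group was 4 wildtype (WT) mice. The genotype field of the PCKO samples names CBP alone, while their protocol names both genes. The promoter and recombinase behind the knockout are not given in the sources used here.

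Per the labels, PCKO mice received tamoxifen by gavage for 5 days from 13 to 15 weeks of age, and tissue was taken 1 day after the last dose and after a fast of 4 hours. The same protocol text stands with the WT samples but speaks of the knockout mice, so whether WT mice were dosed is not settled by it. RNA was measured on 1-colour Agilent mouse arrays, 1 per mouse, all on 1 slide. Between 24207 and 25673 probes, or 43.5% to 46.1%, per array were well above background, and no probe of the 10 genes was saturated. Over tested probes the correlation r was 0.988 to 0.991 between arrays within a group and 0.916 to 0.930 between groups. The slide's 2 rows each held 2 arrays of either group, while its columns 1 and 2 held only PCKO and columns 3 and 4 only WT, so that column and group cannot be told apart.

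Lipogenesis turns surplus carbon into fat. Acetyl-CoA carboxylase makes malonyl-CoA, fatty acid synthase builds palmitate from it, stearoyl-CoA desaturase adds a double bond, and lipins and diacylglycerol acyltransferases place fatty acids on a glycerol backbone. SREBP-1, encoded by Srebf1, answers to insulin and sterols, and ChREBP, encoded by Mlxipl, to glucose. In skeletal muscle the malonyl-CoA made at mitochondria serves above all to restrain the entry of fatty acids for oxidation.

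Both regulators read lower in PCKO, while the enzymes of fatty acid synthesis and of triglyceride assembly split. Of the 13 tested probes, 8 were lower and 4 higher at an adjusted p of 0.05 in limma, and 1 was not called. By gene, Srebf1, Mlxipl, Scd1, Acacb, Lpin1 and Dgat2 were lower, Fasn, Acaca and Dgat1 were higher, and Scd2 did not pass the test. The background of this comparison was broad: of all 24872 tested probes 31.3% were called lower and 33.8% higher, or 65.1% in either direction. Lower calls made up 61.5% of the tested probes of the 10 genes and higher calls 30.8%, so the share of higher calls was close to the background and that of lower calls above it. These shares were not tested, since the genes were chosen with results of these data known. The median log2 difference, PCKO minus WT, was -1.05 over these 13 probes and 0.022 over all tested probes. In 12 of the 13 probes the PCKO and WT values did not overlap, as was the case for 59.9% of all probes. At 2-fold or more 7 probes were lower and 0 higher, against 13.7% and 11.2% of all probes.

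These directions are relative to the other probes of an array. Every value below is the log2 processed intensity minus the 75th percentile of its array, written as a log2 level. Set against the spike-ins, control RNAs added at a known amount, that percentile was -3.48 ± 0.30 in WT and -2.80 ± 0.33 in PCKO (SD, n = 4 each). The gap of 0.68 log2 units had a two-sided p of 0.029 in an exact permutation test, which can go no lower with 4 mice against 4. With arrays centred on the spike-ins the median of all probes moved from 0.022 to 0.71 and the share of higher calls among all calls from 51.9% to 84.6%. On that scale, of the 13 tested probes of the 10 genes 4 were lower and 5 higher, against 9.60% and 52.8% of all tested probes. In this bulk tissue, fewer cells of a type and less RNA per cell cannot be told apart.

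**Figure D1:**
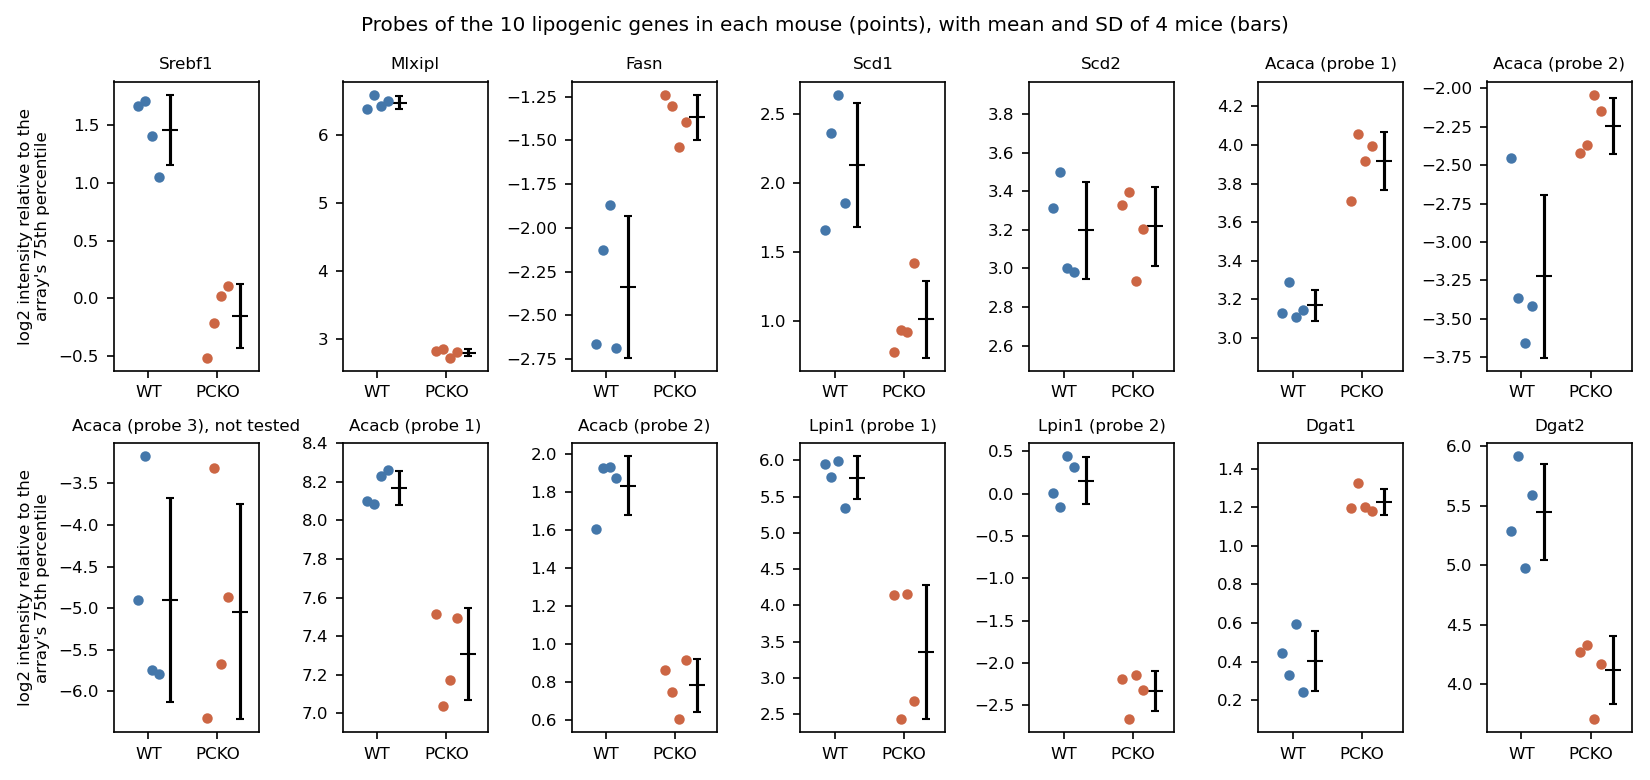
Log2 levels, each array set to 0 at its 75th percentile (vertical axes, each panel with its own range) for the 14 probes of the 10 lipogenic genes, with 1 point per mouse in 4 WT and 4 PCKO mice and bars for the mean and SD. Mlxipl lies near 6.5 in WT and near 2.8 in PCKO, Scd2 overlaps fully, and the PCKO points of Lpin1 probe 1 lie at 2 separate heights.

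Mlxipl, the glucose-responsive factor ChREBP, had the largest difference of the 10 genes. Its log2 level was 6.38, 6.60, 6.43 and 6.50 in WT mice 1 to 4 and 2.82, 2.85, 2.72 and 2.80 in PCKO mice 1 to 4. The spread within either group was small beside the distance between the groups, which did not overlap. On the linear scale the processed intensity ran from 9141 to 14063 in WT and from 1081 to 1471 in PCKO. The log2 difference was -3.68 ± 0.08 (SE, adjusted p = 1.6e-08), a 12.9-fold lower level with a 95% interval of 11.3 to 14.6, and 1.59% of tested probes had a lower value. Mlxipl stayed called and lower in each of the 23 alternative analyses that could give it, between -3.72 and -3.0.

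Srebf1, the gene of SREBP-1, was lower as well. The WT mice read 1.67, 1.71, 1.41 and 1.05, and the PCKO mice -0.52, -0.21, 0.015 and 0.10. The lowest WT mouse stood well above the highest PCKO mouse. The difference was -1.62 ± 0.19 (adjusted p = 9.5e-05), or 3.06-fold, and -0.93 (adjusted p = 0.0057) with spike-in centring. Within slide row 1 it was -2.06 and within row 2 it was -1.17. Srebf1 has several start sites, and which of its transcripts this probe reads is not known here.

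RefSeq promoters of the GRCm38.p6 build, 250 bases before to 50 after a start site, were on hand for 6 of the 10 genes with 9 start sites in all. They were searched on both strands for the E-box CACGTG, which ChREBP with its partner Mlx and USF factors can bind, the sterol response element core TCACNCCAC, the CCAAT box, the GC box GGGCGG and the cyclic AMP response element TGACGTCA. Of 32851 promoters of this length in the same table, 7.15% hold the E-box, 1.24% the sterol element core, 37.4% a CCAAT box, 35.7% a GC box and 1.79% the cyclic AMP element. The 3 sequences below are shown because Mlxipl and Srebf1 are the regulators of the set and the start sites of Mlxipl differ in what they hold. Capitals mark the matches.
Mlxipl start site 1, chr5:135089640-135089939, plus strand: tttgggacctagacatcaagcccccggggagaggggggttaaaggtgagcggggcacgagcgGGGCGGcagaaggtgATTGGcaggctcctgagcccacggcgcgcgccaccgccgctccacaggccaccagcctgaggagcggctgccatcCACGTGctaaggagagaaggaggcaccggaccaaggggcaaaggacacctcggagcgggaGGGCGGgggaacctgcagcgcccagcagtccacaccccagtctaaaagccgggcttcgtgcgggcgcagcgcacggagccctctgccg
Mlxipl start site 2, chr5:135106641-135106940, plus strand: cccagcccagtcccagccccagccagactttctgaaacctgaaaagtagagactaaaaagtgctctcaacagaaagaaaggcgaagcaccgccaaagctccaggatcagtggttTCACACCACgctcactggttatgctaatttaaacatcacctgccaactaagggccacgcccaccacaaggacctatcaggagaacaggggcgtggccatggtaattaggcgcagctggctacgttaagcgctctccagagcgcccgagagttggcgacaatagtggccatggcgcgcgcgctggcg
Srebf1 start site 3, chr11:60210422-60210721, minus strand: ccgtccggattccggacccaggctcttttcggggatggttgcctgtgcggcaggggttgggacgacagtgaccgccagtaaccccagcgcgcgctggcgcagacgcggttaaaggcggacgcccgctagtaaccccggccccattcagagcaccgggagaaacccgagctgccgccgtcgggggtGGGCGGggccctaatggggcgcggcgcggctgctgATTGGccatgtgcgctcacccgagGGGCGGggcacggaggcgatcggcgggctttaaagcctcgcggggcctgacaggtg
The first Mlxipl site held the only E-box among the 9, beginning at base -98 from the start, beside 1 CCAAT box and 2 GC boxes. The second held the only sterol element core, beginning at base -136. The Srebf1 site shown held 1 CCAAT box and 2 GC boxes. Its other start sites held 1 CCAAT box and 3 GC boxes, respectively. No promoter of the 9 held the cyclic AMP element, which says only that those letters are not in these windows. A match is a string of letters and was not tested for binding.

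The carboxylases that make malonyl-CoA moved in opposite directions. Acaca encodes the cytosolic form that feeds fatty acid synthesis, and Acacb the form at the outer mitochondrial membrane that predominates in muscle. Acaca has 3 probes, numbered from the brightest. Probe 1 read 3.13, 3.29, 3.11 and 3.15 in WT and 3.71, 4.06, 3.92 and 3.99 in PCKO. All PCKO mice were above all WT mice, by 0.75 ± 0.10 (adjusted p = 0.00019) or 1.68-fold.

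Probe 2 of Acaca was dim, well above background in 2 of 4 WT and 4 of 4 PCKO mice. It read -2.45, -3.37, -3.66 and -3.42 in WT and -2.42, -2.37, -2.04 and -2.15 in PCKO, so WT mouse 1 came within a few hundredths of the PCKO range. Its difference was 0.98 ± 0.25 (adjusted p = 0.0074), but -0.14 (adjusted p = 0.43) with another background correction (normexp). Probe 3 was well above background in 1 WT and 1 PCKO mouse and was not tested. The higher level of Acaca therefore rests on probe 1, which stayed called in all 23 alternatives (0.67 to 1.43).

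Both Acacb probes were lower in PCKO. The brighter read 8.10, 8.08, 8.23 and 8.26 in WT and 7.52, 7.04, 7.17 and 7.50 in PCKO, a difference of -0.86 ± 0.12 (adjusted p = 0.00037). The other read 1.61, 1.92, 1.93 and 1.87 in WT and 0.86, 0.75, 0.60 and 0.91 in PCKO, a difference of -1.05 ± 0.11 (adjusted p = 5.2e-05). Neither probe's groups overlapped, and the changes were 1.82-fold and 2.07-fold. With quantile normalization the brighter probe differed by -0.40 (adjusted p = 0.02) and the other by -1.06. With spike-in centring they differed by -0.18 (adjusted p = 0.61) and -0.37 (adjusted p = 0.28) and were no longer called.

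Fasn, the fatty acid synthase that builds palmitate, was higher with the main values. WT mice read -2.66, -2.13, -1.87 and -2.69, and PCKO mice -1.24, -1.31, -1.53 and -1.40. The groups did not overlap and PCKO mice were less spread than WT mice (SD 0.13 against 0.41). The difference was 0.97 ± 0.19 (adjusted p = 0.0021), or 1.96-fold. The probe was dim, with processed intensities of 17.3 to 33.3 in WT and 59.2 to 82.6 in PCKO, and with the normexp background correction the difference was 0.14 (adjusted p = 0.36) and not called. Within slide row 2 alone it was 0.81 (adjusted p = 0.10).

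The Fasn promoter is shown for comparison with the regulators above, since it held 3 CCAAT boxes and no other searched motif.
Fasn, chr11:120824498-120824797, minus strand: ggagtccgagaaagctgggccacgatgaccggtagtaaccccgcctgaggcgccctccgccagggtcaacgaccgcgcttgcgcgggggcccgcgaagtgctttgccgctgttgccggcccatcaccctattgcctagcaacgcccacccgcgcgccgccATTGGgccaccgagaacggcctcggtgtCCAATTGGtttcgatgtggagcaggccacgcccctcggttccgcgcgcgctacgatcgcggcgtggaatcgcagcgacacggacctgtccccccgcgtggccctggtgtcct
The boxes begin at bases -90, -62 and -59, and the last 2 overlap. Of the remaining promoters, that of Acacb held 1 CCAAT box, and those of Acaca and Lpin1 held none of the searched motifs.

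The desaturases also parted. Scd1, which makes oleate from stearate, read 1.66, 2.36, 2.64 and 1.86 in WT and 0.78, 0.93, 0.92 and 1.42 in PCKO. The highest PCKO mouse, number 4, lay just under the lowest WT mouse. The difference was -1.12 ± 0.23 (adjusted p = 0.0029), or 2.17-fold. It was -0.43 (adjusted p = 0.22) with spike-in centring and -1.08 (adjusted p = 0.069) within slide row 2 alone, not called in either.

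Scd2, a related desaturase, was the gene whose groups overlapped. It read 3.31, 3.50, 3.0 and 2.98 in WT and 3.33, 3.40, 2.94 and 3.21 in PCKO. The difference was 0.019 ± 0.15 (adjusted p = 0.92), with a 95% interval of -0.33 to 0.36. With spike-in centring it was 0.70 (adjusted p = 0.034). Probe sequences were not used here, so reads of Scd1 by a Scd2 probe, or the reverse, were not examined.

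Lpin1, the phosphatidate phosphatase lipin-1 that makes diacylglycerol and is the main lipin of muscle, was lower on both of its probes. The brighter read 5.95, 5.77, 5.99 and 5.34 in WT and 4.14, 2.43, 4.15 and 2.68 in PCKO. PCKO mice 1 and 3 were thus far above PCKO mice 2 and 4, and all were below every WT mouse. The difference was -2.41 ± 0.42 (adjusted p = 0.001), or 5.32-fold with a 95% interval of 2.75 to 10.3. PCKO mice 1 and 3 lay in slide column 1 and PCKO mice 2 and 4 in slide column 2, and the part of the column in this split was not tested.

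The second Lpin1 probe did not show a split of that size. It was dim, with processed intensities of 110.3 to 165.3 in WT and 31.2 to 41.6 in PCKO, where a split may be harder to see. It read 0.01, -0.15, 0.44 and 0.32 in WT and -2.19, -2.66, -2.14 and -2.32 in PCKO. PCKO mice 1 and 3 were again the higher ones, but the 4 lay closer together (SD 0.24, against 0.92 on the brighter probe). The difference was -2.48 ± 0.17 (adjusted p = 3.9e-06), or 5.58-fold, so the mean change was nearly the same on both probes. With the normexp background correction it was -1.35 on this dimmer probe and -2.09 on the brighter one.

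The diacylglycerol acyltransferases, which catalyse the last step of triglyceride synthesis, moved in opposite directions. Dgat2 read 5.29, 5.92, 4.97 and 5.60 in WT and 4.27, 4.33, 3.70 and 4.17 in PCKO. No PCKO mouse reached the lowest WT mouse, and the difference was -1.33 ± 0.22 (adjusted p = 0.00078), or 2.51-fold. With spike-in centring it was -0.64 (adjusted p = 0.058) and not called. Dgat1 read 0.44, 0.33, 0.60 and 0.24 in WT and 1.20, 1.33, 1.20 and 1.18 in PCKO. All PCKO mice were above all WT mice, by 0.82 ± 0.10 (adjusted p = 0.00011) or 1.77-fold.

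**Figure D2:**
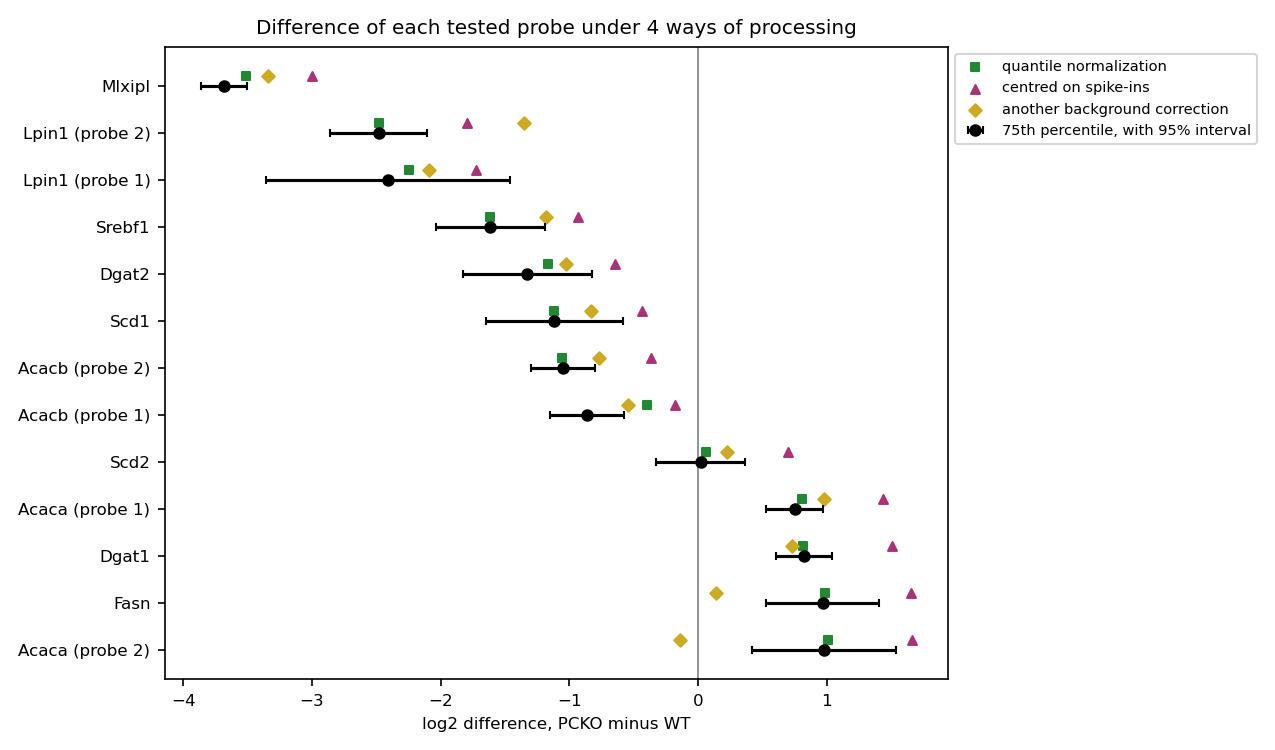
Log2 difference, PCKO minus WT (horizontal axis), of the 13 tested probes, as the fitted value with its 95% interval (black) and under 3 other ways of processing (coloured symbols). Mlxipl, both Lpin1 probes and Srebf1 lie left of 0 in all 4, Acaca probe 1 and Dgat1 right of 0 in all 4, while Fasn and Acaca probe 2 come to 0.14 and -0.14 with another background correction.

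Because a ratio within an array does not change when the whole array is shifted, related enzymes were also set against each other mouse by mouse. The pairs were picked after their values were seen, so no test is given, and only the change of a ratio has a meaning, since probes differ in brightness. The log2 ratio of Acaca to Acacb went from -5.00 ± 0.15 in WT to -3.39 ± 0.35 in PCKO (SD, n = 4 each), a rise of 1.61 or 3.06-fold. That of Dgat1 to Dgat2 went from -5.04 ± 0.54 to -2.89 ± 0.26, a rise of 2.15 or 4.44-fold. That of Scd2 to Scd1 went from 1.07 ± 0.53 to 2.20 ± 0.36, a rise of 1.14 or 2.20-fold. All 4 PCKO mice exceeded all 4 WT mice in each of these ratios. For Acaca over Acacb and Dgat1 over Dgat2 this had to be so, since the single probes already parted without overlap in opposite directions. A shift of whole arrays leaves the ratios as they are, while other processing can change their size.

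With the normexp correction the 3 rises were 1.52, 1.75 and 1.06, and with quantile normalization 1.21, 1.98 and 1.18. The ratio of Lpin2 to Lpin1 rose by 3.80 with the main values but by 2.23 with normexp. Lpin2, another lipin, was dim, well above background in 3 of 4 WT mice, and its own difference of 1.39 ± 0.21 (adjusted p = 0.00043) was 0.14 (adjusted p = 0.42) with normexp.

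**Figure D3:**
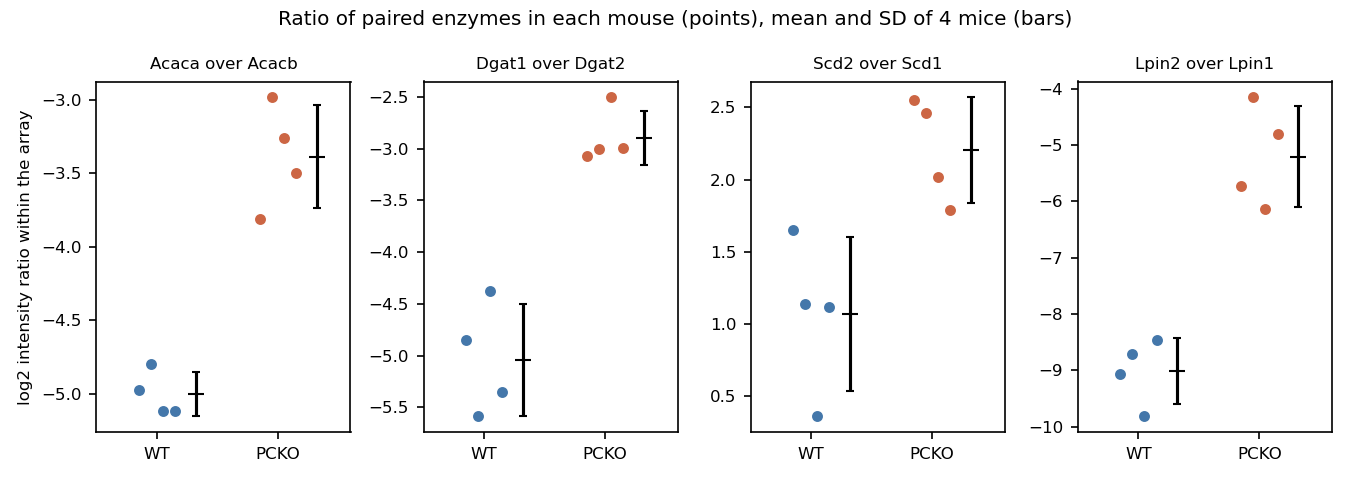
Log2 ratio of the intensities of 2 related enzymes within each array (vertical axes, each panel with its own range), with 1 point per mouse in 4 WT and 4 PCKO mice and bars for the mean and SD. All PCKO points lie above all WT points in each panel, with mean rises of 1.61 for Acaca over Acacb, 2.15 for Dgat1 over Dgat2, 1.14 for Scd2 over Scd1 and 3.80 for Lpin2 over Lpin1.

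Around the 10 genes, 103 further genes in 6 lists were read, each at its brightest tested probe. Of the 95 that could be tested, 40 were lower, 25 higher and 30 not called. Among all 12739 named genes tested this way 31.9% were lower and 37.5% higher, with a median difference of 0.056. From each list the called genes with the 2 largest differences are named by rule, and other genes were picked after their values were seen.

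Fatty acid synthesis and desaturation had 10 lower and 8 higher genes of 25 tested, with a median of 0.028. With spike-in centring 4 were lower and 13 higher, with a median of 0.71. Elovl7, a fatty acid elongase, read -4.37, -3.74, -3.25 and -2.68 in WT and -0.81, -0.75, -0.98 and -0.71 in PCKO, higher by 2.70 ± 0.31 (adjusted p = 0.00011) and by 0.73 with normexp. Mid1ip1, which promotes the polymerisation and activity of acetyl-CoA carboxylase, read 4.98, 5.35, 4.99 and 4.88 in WT and 2.50, 2.69, 2.45 and 2.63 in PCKO, a difference of -2.48 ± 0.12 (adjusted p = 5.5e-07). Me1, a malic enzyme that makes NADPH, was lower by -1.33 ± 0.10 (adjusted p = 6.2e-06) and on each of its 3 probes, but was not called with spike-in centring (-0.64, adjusted p = 0.051). Acly, which makes cytosolic acetyl-CoA, was higher by 0.43 ± 0.10 (adjusted p = 0.0062).

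Triglyceride and phosphatidate synthesis had 6 lower and 5 higher genes of 16, with a median of -0.24. With spike-in centring 2 were lower and 5 higher, with a median of 0.45. Gpd1, the dehydrogenase that makes the glycerol phosphate backbone, read 8.76 to 9.01 in WT and 5.22 to 5.41 in PCKO, a difference of -3.56 ± 0.09 (adjusted p = 2.8e-08). Plpp2, a lipid phosphate phosphatase, read 0.31 to 0.61 in WT and 3.30 to 3.48 in PCKO, higher by 2.92 ± 0.09 (adjusted p = 6.5e-08). Gpam, the mitochondrial acyltransferase of the first acylation step, was lower by -1.52 ± 0.12 (adjusted p = 8e-06), or -0.93 with normexp.

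The lipid droplet and lipolysis list had the largest share of lower genes of the 6, 11 lower and 3 higher of 15, with a median of -0.81 (-0.13 with spike-in centring, where 6 were lower and 3 higher). Plin4, a droplet coat protein, read 8.66 to 8.83 in WT and 3.95 to 4.53 in PCKO, a difference of -4.57 ± 0.13 (adjusted p = 4.9e-08), or 23.7-fold. Cidea, a protein of droplet fusion, went the other way, from 1.17, 1.77, 0.30 and 1.75 in WT to 4.74, 4.99, 5.17 and 5.41 in PCKO, higher by 3.83 ± 0.32 (adjusted p = 1.5e-05). Fitm1, which helps form droplets in muscle, differed by -3.28 ± 0.09 (adjusted p = 4.6e-08).

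Genes that process SREBP-1 or act with it were next. Of 19 tested genes of SREBP processing and partners, 5 were lower, 2 higher and 12 not called, with a median of -0.081. With spike-in centring 2 were lower and 8 higher, with a median of 0.60. Scap, the escort of SREBP, differed by -0.081 (adjusted p = 0.47), its anchor Insig1 by 0.51 (adjusted p = 0.093) and the sister factor Srebf2 by 0.51 (adjusted p = 0.085), none of them called. With spike-in centring Insig1 (1.19, adjusted p = 0.00035) and Srebf2 (1.19, adjusted p = 0.00059) were called higher, and with normexp they read -0.18 and -0.25 and were not called. The liver X receptor Nr1h3, a known activator of Srebf1, was higher by 0.51 ± 0.11 (adjusted p = 0.0039), and Nr1h2 by 0.30 ± 0.10 (adjusted p = 0.03). Of their partners, Rxrg, a retinoid X receptor, was lower by -2.21 ± 0.10 (adjusted p = 4.2e-07), and Ppargc1b, a coactivator of SREBP-1, by -1.53 ± 0.45 (adjusted p = 0.016), or -0.82 with normexp.

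Of the genes listed around ChREBP, its relative Mlxip and its dimer partner Mlx parted. Mlxip, the related glucose sensor MondoA, read 3.69 to 3.98 in WT and 2.08 to 2.41 in PCKO, lower by -1.60 ± 0.10 (adjusted p = 2.9e-06). Mlx, the shared dimer partner of both, read 0.34 to 0.86 in WT and 1.21 to 1.50 in PCKO, higher by 0.70 ± 0.13 (adjusted p = 0.0013). Hk2, a hexokinase of muscle, was lower by -3.26 ± 0.11 (adjusted p = 9.9e-08). Txnip, a usual responder to MondoA and ChREBP, differed by -0.28 (adjusted p = 0.15) and was not called. The whole list had 2 lower and 3 higher genes of 8, with a median of 0.23. With spike-in centring 2 were lower and 5 higher, with a median of 0.92.

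Genes that use malonyl-CoA or act on the carboxylases through AMP kinase had 6 lower and 4 higher of 12, with a median of -0.40. With spike-in centring 2 were lower and 5 higher, with a median of 0.28. Mlycd, which breaks malonyl-CoA down, was lower by -1.12 ± 0.09 (adjusted p = 9.6e-06), as Acacb was. Cpt1b, the muscle carnitine palmitoyltransferase that malonyl-CoA inhibits, was lower by -0.78 ± 0.11 (adjusted p = 4e-04), and Cpt1a higher by 0.88 ± 0.12 (adjusted p = 0.00029). Prkag3, a regulatory AMP kinase subunit of fast muscle, read 1.09 to 1.43 in WT and -3.65 to -3.33 in PCKO, lower by -4.78 ± 0.11 (adjusted p = 2.4e-08), or -2.61 with normexp. The catalytic subunit Prkaa2 was lower by -1.93 ± 0.09 (adjusted p = 6.3e-07), while Prkaa1 was higher by 0.99 ± 0.09 (adjusted p = 1.7e-05). With spike-in centring Mlycd (-0.44, adjusted p = 0.20) and Cpt1b (-0.099, adjusted p = 0.79) were not called.

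**Figure D4:**
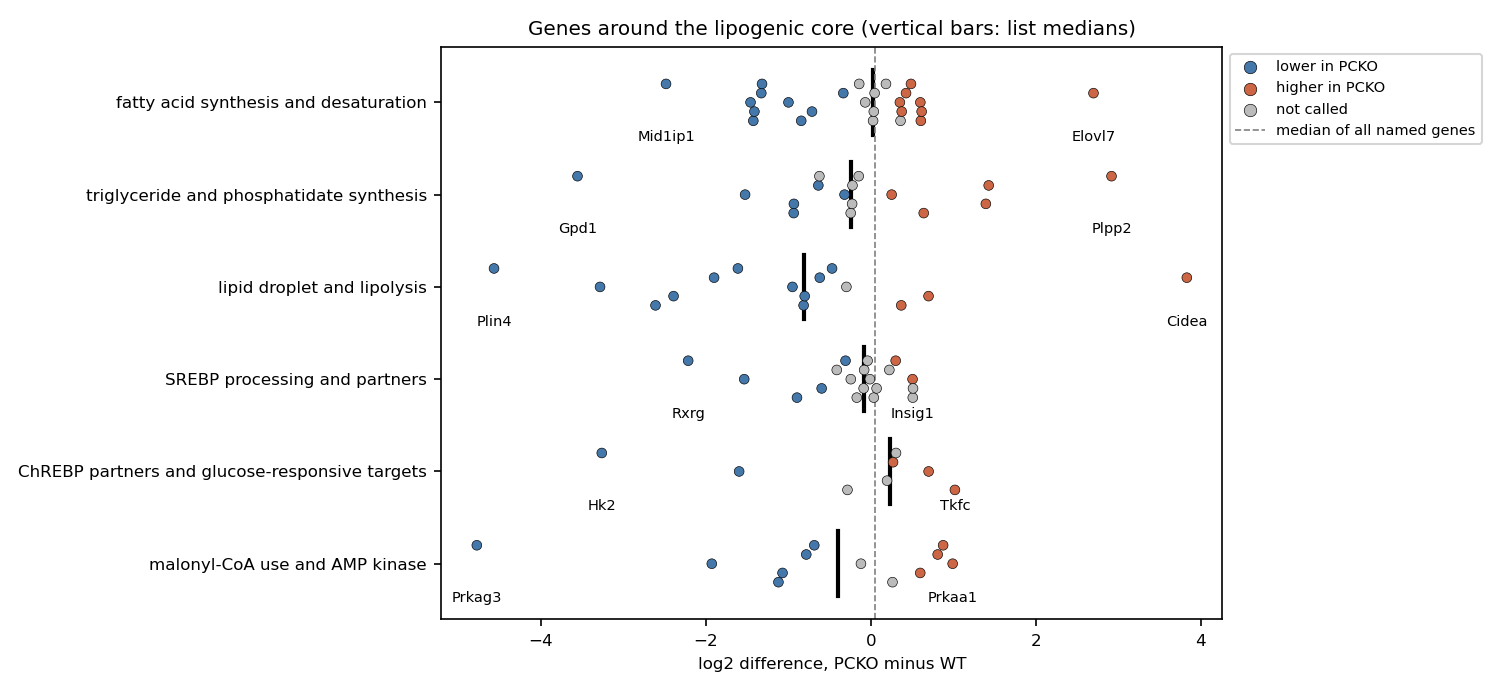
Log2 difference, PCKO minus WT (horizontal axis), of 95 genes in 6 lists around the lipogenic core, with 1 point per gene at its brightest tested probe, coloured by its call, and a vertical bar for the list's median. The lipid droplet list has 11 lower genes of 15 and a median of -0.81, the fatty acid synthesis list 10 lower and 8 higher of 25 and a median of 0.028.

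EDL samples can carry fat cells, which express Scd1, Dgat2 and Fasn strongly, so markers of fat were read beside these genes. Of 8 tested fat cell markers 1 was lower (Fabp4, which endothelium also expresses), 1 higher (Cidea) and 6 not called. On the linear scale their summed level overlapped, from 333 to 576 in WT and from 204 to 401 in PCKO. The brightest markers, Fabp4 and Cfd, make up most of that sum, so it says little about the others. Fabp4 by itself read 7.94 to 8.31 in WT and 7.09 to 7.58 in PCKO, without overlap, and Cidea, which was higher, did not overlap either. Of the 9 markers, 7 were well above background on all 8 arrays and none was below it on all. Adipoq, the fat cell hormone adiponectin, read 1.90, 3.30, 4.03 and 2.74 in WT and 1.01, 3.30, 2.13 and 2.76 in PCKO.

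Scd1 followed the same order of mice as Adipoq within WT, lowest in mouse 1 and highest in mouse 3. Within PCKO both were lowest in mouse 1, while Adipoq was highest in mouse 2 and Scd1 in mouse 4. PCKO mouse 2, with as much Adipoq as WT mouse 2, read 0.93 for Scd1 against 2.36. Among WT mice Dgat2 was lowest in mouse 3, the one with the most Adipoq. Among PCKO mice Dgat2 was highest in mouse 2 (4.33), the one with the most Adipoq. Fasn in WT was highest in mice 3 and 2 (-1.87 and -2.13), the ones with the most Adipoq. In PCKO it was highest in mouse 1 (-1.24), the one with the least. These mice were picked after their values were seen. The part of fat cells in these differences was not tested.

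**Figure D5:**
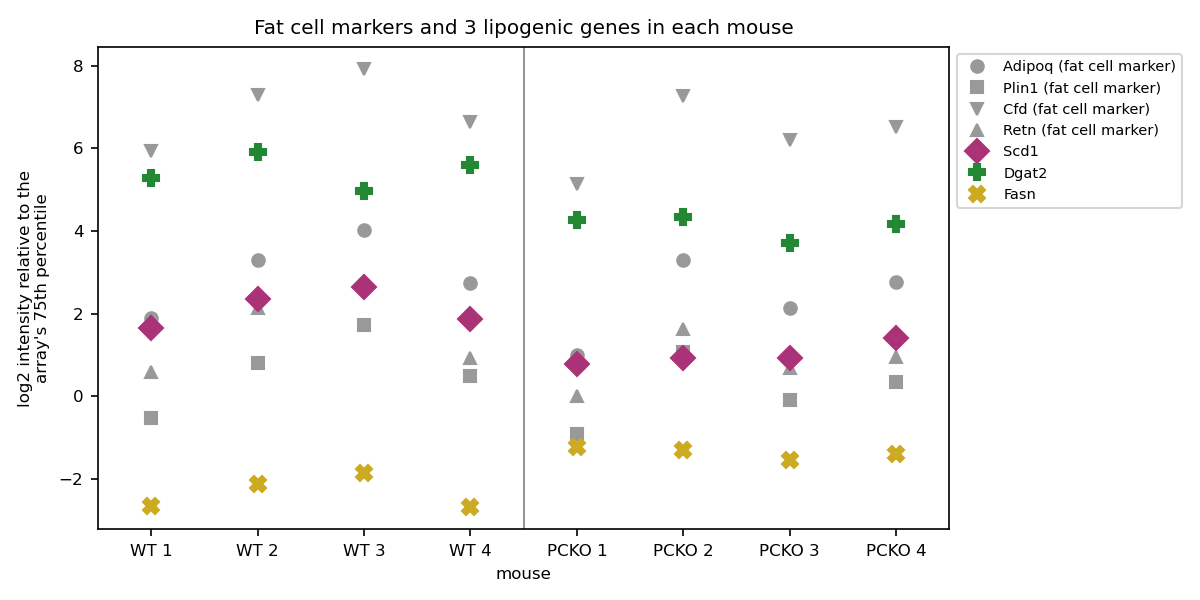
Log2 levels, each array set to 0 at its 75th percentile (vertical axis), in each of 4 WT and 4 PCKO mice (horizontal axis) for 4 fat cell markers (grey) and for Scd1, Dgat2 and Fasn (coloured). The grey markers overlap between the groups, with WT mouse 3 highest and PCKO mouse 1 lowest. These 4 are a selection, and Fabp4, lower in PCKO, and Cidea, higher in PCKO, are among the markers not shown. Scd1 and Dgat2 are lower in every PCKO mouse than in every WT mouse, and Fasn is higher.

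Markers of the muscle fibre and of other cell types were read as well. All 10 skeletal muscle fibre markers were lower in PCKO, with a summed level of 5566 to 6733 in WT and 2070 to 2460 in PCKO. Myod1 was well above background in 4 of 4 WT and 0 of 4 PCKO mice. It was at least 23.9-fold lower with the main values, while with normexp its log2 difference was -2.36, a smaller change. At their brightest tested probe all 6 endothelial markers were lower (summed level 17.6 to 24.8 against 12.6 to 15.0). So were all 5 tested macrophage markers (26.1 to 32.8 against 10.2 to 20.5) and all 5 fibroblast markers (427 to 531 against 213 to 291). The brightest marker of each list, Cdh5, Csf1r and Dcn, makes up most of its sum. Dcn was not called with quantile normalization (-0.15, adjusted p = 0.3). Another probe of Kdr (-0.26, adjusted p = 0.27) and another of Csf1r (0.26, adjusted p = 0.37) were not called, while further probes of Adgre1 and Csf1r were lower. Of 7 Schwann cell markers 1 was lower and 1 higher (25.6 to 43.2 against 17.3 to 40.7). With spike-in centring 7 of 10 muscle fibre markers, 3 of 5 fibroblast, 1 of 5 macrophage, 0 of 6 endothelial and 0 of 7 Schwann cell markers were called lower. Their part in the lower values of Mlxipl, Srebf1, Acacb, Lpin1, Scd1 and Dgat2 was not tested. Of the targeted genes, Ep300 differed by -1.44 ± 0.11 (adjusted p = 9.6e-06) and Crebbp by -0.70 ± 0.11 (adjusted p = 6e-04), on probes whose place relative to the deleted part is not known here, so these values do not check the deletion.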

How the data were processed

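EDL RNA of 4 PCKO and 4 WT mice was measured on 1-colour Agilent arrays. The deposited scanner files hold spot intensity values from the Feature Extraction software (version 10.7.3.1 per the file headers), already background-subtracted but not normalized between arrays. The deposited series table holds log2 values of 32622 probes, with their processing not given in the sources used here, and served only as an alternative. Flags for spots well above background, saturated or outlying were used as the authors deposited them.

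Processed intensity was averaged over spots of a probe, without outlier spots, put on a log2 scale and centred on the array's 75th percentile. Probes well above background on at least 4 of 8 arrays entered a two-sided comparison by lmFit and eBayes (limma 3.58.1, R 4.3.3), with Benjamini-Hochberg adjustment over 24872 probes and a threshold of 0.05. Transcript accessions gave 26582 probes a gene symbol through a RefSeq table (GRCm38.p6) and 29099 none. List genes were read at their brightest tested probe. Named were all member probes, both targeted genes and the 2 largest called differences of each list. The members and lists were chosen with earlier results of these data known. The fit was tested on simulated data. The labels call the samples separate mice. Their number limits the precision.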

Additional observations from a re-analysis of the deposited data

Results flagged for a closer look

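Dgat1 in PCKO mouse 2 read 1.33 where the other 3 PCKO mice read 1.18 to 1.20. Its gap was 0.857 of the group's range, above Dixon's 95% critical value for 4 samples. It was the only such value among the 26 groups of 4 examined, where chance alone gives about 1 in 20. Without that mouse Dgat1 was still called higher, as it was without each other mouse (0.77 to 0.89).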

How the results depend on the processing

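Srebf1, Mlxipl, Acaca probe 1, both Lpin1 probes and Dgat1 kept direction and call in every alternative that could give them (22 or 23 each). Scd2, never called except with spike-in centring, turned sign within slide row 1 (-0.043) and without 1 mouse (-0.054 to 0.12 over the 8 such fits, below 0 without WT 3, WT 4, PCKO 1 or PCKO 2). Acaca probe 2 turned with normexp (-0.14) and was 0.51 (adjusted p = 0.25) within row 1. Leaving out 1 mouse kept 8 lower and 4 higher member probes, 15112 to 15807 calls over all probes, 38 to 43 lower list genes and 22 to 27 higher. With spike-in centring 2388 probes were lower and 13139 higher, members 4 lower, and lists 18 lower and 39 higher. With normexp 2 member probes were higher. The deposited values list 7 of the 14 member probes, of which 5 were lower and 2 higher, and gave 9394 calls over all probes (4023 lower, 5371 higher) and 23 lower list genes. With 1 probe per gene there were 9051 calls (4171 lower, 4880 higher). Within slide row 1, 10770 probes were called, 5436 higher, with 16 list genes higher, and within row 2, 10748 and 5458, with 15. Those fits have 2 arrays against 2. Mice with the same replicate number correlated only weakly (r 0.015 to 0.089), though 6 of 8 arrays correlated best with their own number. Numbers 1 and 2 lay in slide row 1 and numbers 3 and 4 in row 2. Whether a shared number stands for a shared factor is not settled. With the number as a replicate block 15891 probes were called and the member counts stayed at 8 and 4. Low signal over background limits Fasn, Acaca probes 2 and 3 and, in PCKO, Lpin1 probe 2. The cause of these shifts was not tested.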
